A study of Homo sapiens with 4 samples.

Results

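The DEAD and DEAH box RNA helicases are 53 protein-coding genes among the 63241 genes with values in the deposited table. They were taken by symbol, as the genes on an autosome or the X chromosome called DDX or DHX with a number and at most 1 further letter. They were measured in 22Rv1, an established human line of castration-resistant prostate cancer (CRPC in the labels), in 4 libraries of poly(A)-selected RNA. Vehicle cells (2 libraries) had DMSO and JMC45 cells (2 libraries) had 40 nM JMC45, a small molecule directed at the kinase CDK9, both for 12 h. The design text calls the compound D45, which was read here as JMC45. Everything therefore comes from 1 line, 1 dose and 1 time point. Whether the libraries of a group came from separate cultures is not stated, and the p-values rest on the spread between libraries, which may be technical.

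These enzymes use ATP to pry apart short RNA duplexes or to strip proteins from RNA, and are named after the amino acids of a conserved motif in the helicase core. DEAD box (DDX) proteins mostly open duplexes locally, whereas DEAH box (DHX) proteins tend to move along a strand. Nearly every step in the life of an RNA uses some of them: splicing, export from the nucleus, ribosome assembly, translation and decay. CDK9 acts upstream of all these steps, as the kinase that lets paused RNA polymerase II proceed into the gene body. Its own transcript was at 20.2 and 22.5 TPM in vehicle and at 4.93 and 3.78 TPM in JMC45, which does not check the labels, since the compound is aimed at the protein.

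TPM is the length-corrected share of a library that a gene takes up, so levels of different genes can be set side by side, but a change is always relative to the other transcripts. The depth of the libraries is unknown, and no spike-in was analysed here. In bulk RNA, fewer cells of a kind and less RNA per cell cannot be told apart. A gene was tested if its mean TPM over the 4 libraries was at least 1, and "fell" and "rose" stand for an adjusted p under 0.05 in limma, adjusted over all 14018 genes tested. Changes are differences in log2(TPM + 1), which understate the change of low genes. All 7 luminal prostate markers were present, with a summed level of 764 and 777 TPM in vehicle and of 286 and 282 TPM in JMC45. They did not move alike. KLK3 was at 10.09 and 10.09 TPM in vehicle and 14.21 and 11.47 TPM in JMC45 (not called, limma adjusted p = 0.0576). The others fell, with 80.2% of the vehicle mean left for KRT8 and 8.86% for KRT19. The part of these shifts in the results below was not tested. No marker out of 4 for leukocytes or 3 for endothelium reached a mean of 1 TPM, and CD3E and CDH5 were listed at 0 in every library. Of 4 fibroblast markers 2 did, COL1A1 and LUM, and the list summed to 7.59 and 7.11 TPM in vehicle and 6.88 and 6.20 TPM in JMC45.

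Nearly all of the helicases measured lower in the JMC45 cells. Of the 53 genes 48 were tested, of which 45 fell and 1, DDX39B, rose. DDX41 and DDX49 did not pass. Decreases were the rule in these libraries: limma called 80.7% of all tested genes lower and 4.25% higher (83.7% and 3.54% of tested protein-coding genes), so the count alone says little about helicases. The median helicase changed by -1.74 on the log2 scale against -1.10 for all tested genes, 37 of the 48 lay below that general median, and 41 were called and at least 2-fold lower, against 54.3% of all tested genes. In TPM, the median helicase kept 27.4% of its vehicle mean, and the median tested gene kept 38.7%. The groups did not overlap for 46 helicases that were lower and for 1 that was higher, against backgrounds of 85.7% and 6.28%.

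How many of these decreases remained depended on the scaling. Median-of-ratios scaling divides each library by 1 factor that sets the typical gene to no change, and quantile normalization forces all libraries to 1 distribution. After the first, 30 of the 48 helicases were lower and 9 higher, against 35.3% and 35.5% of all tested genes. After the second, 36 were lower and 4 higher, against 32.8% and 33.6%. The same 29 helicases were called lower on TPM and under both of these scalings. The share of all tested genes that were lower in each of them was not computed, so this count has no background beside it. The value after median-of-ratios scaling is given beside a change below where it bears on the direction.

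**Figure D1:**
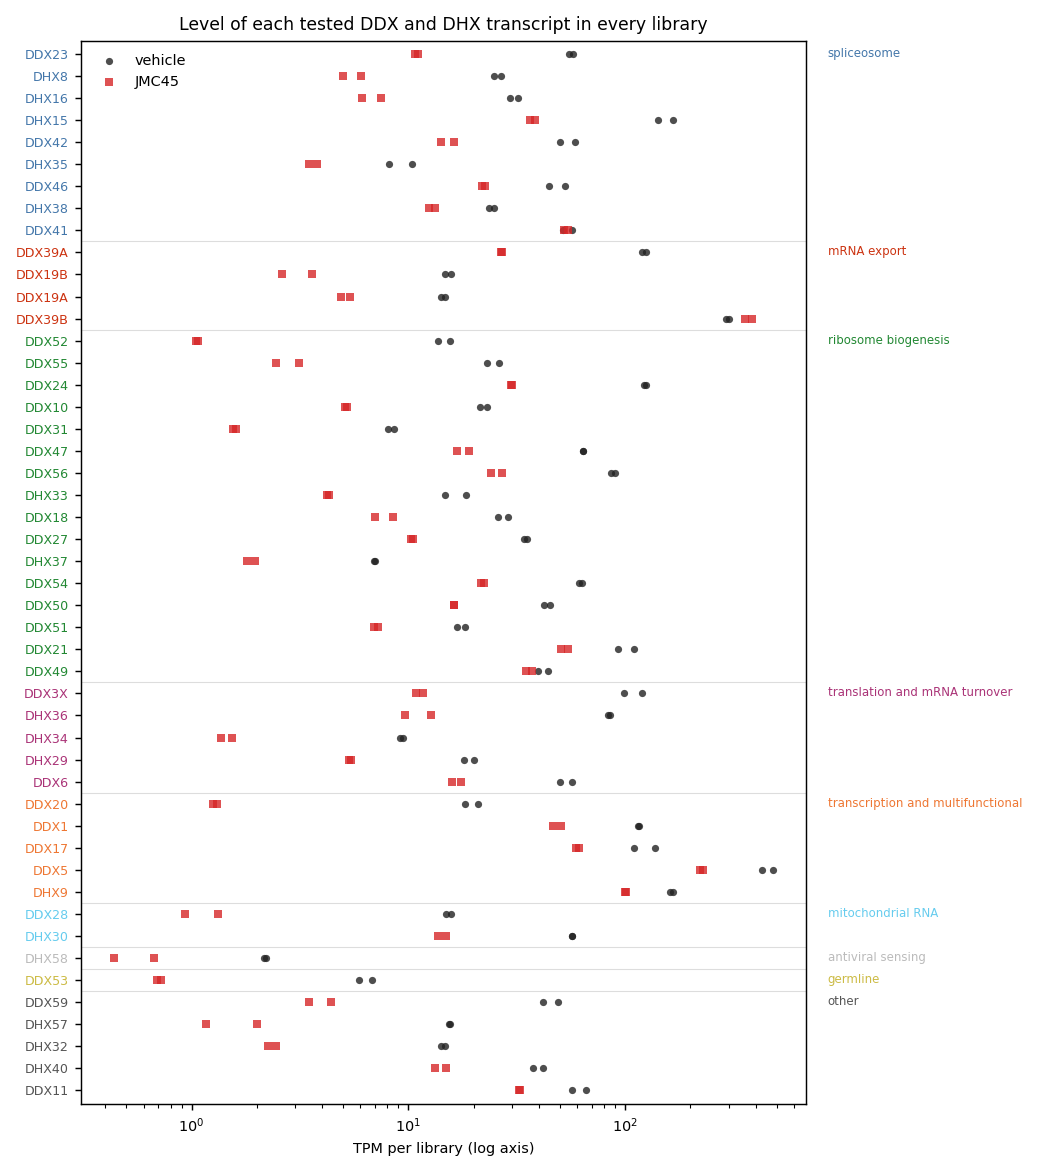
TPM of the 48 tested helicases (log axis) in the 2 vehicle libraries (black circles) and the 2 JMC45 libraries (red squares), grouped by role and ordered by change. The JMC45 squares lie left of both vehicle circles except for DDX39B, where they lie to the right, and DDX41, where they overlap.

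Together the 53 transcripts summed to 3121 and 2902 TPM in vehicle and to 1379 and 1363 TPM in JMC45. Within that sum the order changed. In vehicle the most abundant helicase was DDX5, at 481 and 429 TPM, followed by DDX39B and DHX9, and 10 members had a mean of at least 100 TPM. In JMC45 only DDX39B, DDX5 and DHX9 still did, with DDX39B first. DDX39B made up 9.66% and 10.01% of the helicase TPM in the vehicle libraries and 28.0% and 26.3% in the JMC45 libraries. DDX3X made up 3.83% and 3.38% in vehicle and 0.790% and 0.861% in JMC45. These proportions within a library do not depend on a factor common to all its genes. The next levels in vehicle after DHX15 (154 TPM), those of DDX17, DDX24, DDX39A, DDX1, DDX3X and DDX21, ran from 124 down to 101 TPM, and the SDs of DDX17 (19.1), DDX3X (15.1) and DDX21 (11.9) span the gaps to their neighbours in that order.

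**Figure D2:**
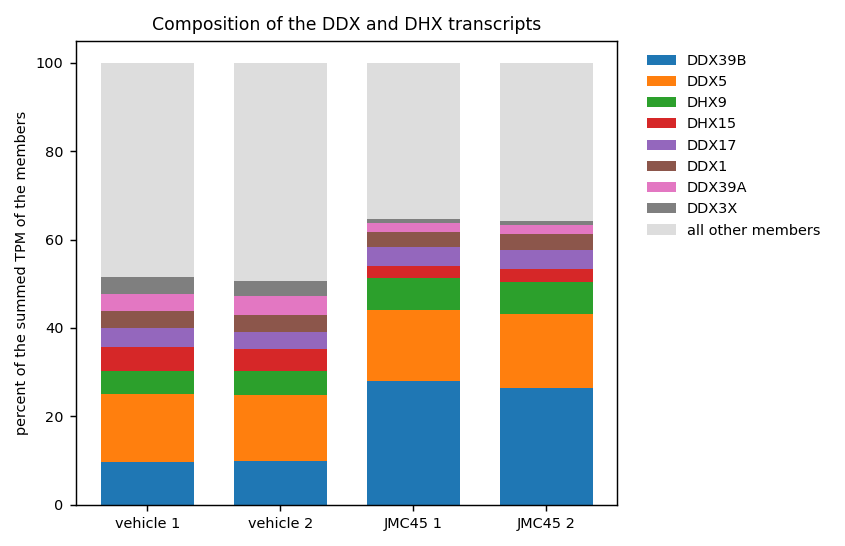
Percent of the summed TPM of the 53 helicases taken by each of 8 abundant members and by all others, in each library. The DDX39B segment is 9.66% and 10.01% in vehicle and 28.0% and 26.3% in JMC45, and the pale segment of all other members is smaller in both JMC45 libraries.

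Messenger RNA leaves the nucleus with the help of DDX39A and DDX39B, alternative ATPases of the TREX export complex, and is released at the outer face of the nuclear pore by DDX19A and DDX19B. DDX39B, which also acts in early spliceosome assembly, was at 302 and 291 TPM in vehicle and at 386 and 359 TPM in JMC45. Both JMC45 libraries were above both vehicle libraries. DDX39B rose by 0.33 on the log2 scale (SE 0.06, limma adjusted p = 0.00313), at 1.69 under median-of-ratios scaling and at -0.13 when libraries were scaled to an equal mitochondrially encoded total. Leaving out any 1 library gave 0.28 to 0.38 with an adjusted p of at most 0.0317. Of the 13 alternatives, the mitochondrial scaling was the only one in which DDX39B was not called higher.

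DDX39A went the other way, from 119.8 and 124 TPM in vehicle to 27.2 and 26.8 TPM in JMC45. It fell by 2.14 on the log2 scale (SE 0.07, limma adjusted p = 9.8e-06), and median-of-ratios scaling gave -0.80. DDX19B was at 14.7 and 15.7 TPM in vehicle and at 2.62 and 3.58 TPM in JMC45, and DDX19A at 14.7 and 14.2 TPM and at 5.39 and 4.91 TPM. These adjacent genes, level in vehicle, thus ended apart, with log2 changes of -1.99 and -1.33. The decrease of DDX19A did not pass after median-of-ratios scaling (-0.11) and its value was 0.043 after quantile normalization.

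Exons of DDX39B overlap other annotated genes, with strand use in the quantification not given in the sources used here. The read-through gene ATP6V1G2-DDX39B shares 2079 bases on the same strand and was at 2.09 and 1.25 TPM in vehicle and 0.38 and 0.47 TPM in JMC45. The antisense gene DDX39B-AS1 was under 1 TPM in every library. Of the 48 tested helicases 27 have exons that overlap another gene in GENCODE release 29, and in 19 of them the other gene reached 1 TPM in some library. An example is DHX32, whose exons overlap those of the more abundant BCCIP on the other strand.

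Related helicases can be compared inside each library, where a factor common to all genes has little effect. DDX39A minus DDX39B was -1.32 and -1.22 on the log2(TPM + 1) scale in vehicle and -3.78 and -3.70 in JMC45, so that DDX39A went from 0.412 to 0.0724 of the DDX39B level. The difference between DHX29 and DHX57, relatives within the DEAH box group, grew from 0.36 and 0.19 to 1.07 and 1.57. That between DDX21 and DDX50, nucleolar paralogues, grew from 1.26 and 1.13 to 1.59 and 1.69 (a mean shift of 0.44, or 0.090 under quantile normalization), and that between DDX19A and DDX19B went from about level (0.00 and -0.14) to 0.82 and 0.37. In these 4 pairs the groups did not overlap, and the two-sided exact permutation test gave p = 0.33 (0.50 adjusted over the 6 pairs compared), the smallest raw value that 2 libraries against 2 can give. DDX5 and DDX17, close paralogues that act as transcriptional coregulators, had a ratio of 3.68 in vehicle and 3.74 in JMC45. The difference in their log2 distance was 0.01 (-0.31 under quantile normalization, which does not scale by a common factor), and the groups overlapped (exact permutation p = 1.0). DHX8 and DHX16 also overlapped, with a difference of -0.01 (exact permutation p = 1.0). A p of this kind does not show that the members of a pair act alike. Near-identical copies may share reads, which holds most for DDX19A and DDX19B, for DDX3X with its copy on the Y chromosome, and for DDX11 with the pseudogene DDX12P.

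**Figure D3:**
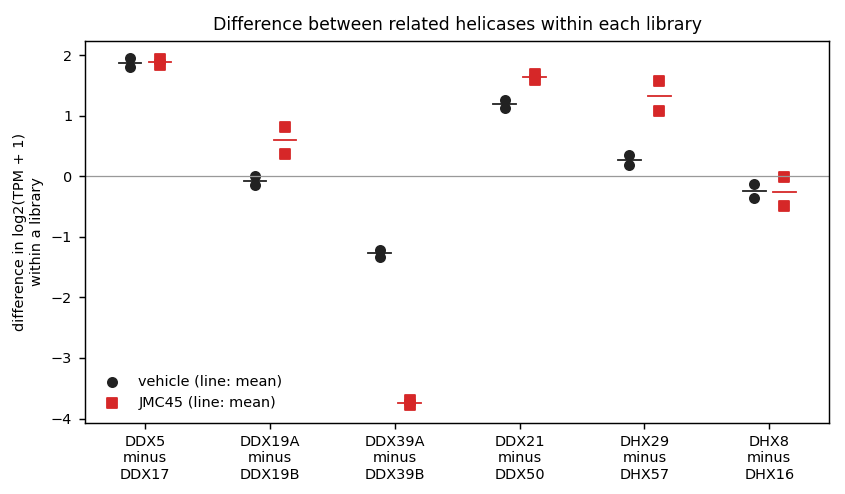
Difference in log2(TPM + 1) between the genes of 6 related pairs, in each vehicle library (black circles) and each JMC45 library (red squares), with a line at each group mean. The DDX39A and DDX39B pair moves from a mean of -1.27 to -3.74, whereas DDX5 and DDX17 stay at 1.88 and 1.89.

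Promoter sequence is shown for DDX39B, the helicase that rose, for its paralogue DDX39A, for DDX41, which did not pass, and for DDX59 and DDX20, those with the largest decreases in log2(TPM + 1). Each run is the 250 bases before the gene's start in RefSeq on GRCh38.p14, 5′ to 3′ on the gene's strand. They lie at chr1:200669908-200670157 (- strand, DDX59), chr1:111755651-111755900 (+ strand, DDX20), chr19:14419384-14419633 (- strand, DDX39A), chr5:177516962-177517211 (- strand, DDX41) and chr6:31542004-31542253 (- strand, DDX39B). Capitals mark each match, on either strand, to any of 5 short promoter motifs, whose letters are spelled out after the runs.
DDX59: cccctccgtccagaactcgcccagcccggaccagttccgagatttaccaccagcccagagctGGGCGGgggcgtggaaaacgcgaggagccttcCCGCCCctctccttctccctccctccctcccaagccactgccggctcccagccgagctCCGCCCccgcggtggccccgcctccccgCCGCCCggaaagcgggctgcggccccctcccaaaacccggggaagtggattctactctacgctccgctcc
DDX20: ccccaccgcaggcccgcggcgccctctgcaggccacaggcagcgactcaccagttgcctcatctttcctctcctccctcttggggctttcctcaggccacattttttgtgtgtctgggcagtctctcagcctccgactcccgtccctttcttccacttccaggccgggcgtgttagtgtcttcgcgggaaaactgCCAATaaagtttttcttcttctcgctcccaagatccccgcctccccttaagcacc
DDX39A: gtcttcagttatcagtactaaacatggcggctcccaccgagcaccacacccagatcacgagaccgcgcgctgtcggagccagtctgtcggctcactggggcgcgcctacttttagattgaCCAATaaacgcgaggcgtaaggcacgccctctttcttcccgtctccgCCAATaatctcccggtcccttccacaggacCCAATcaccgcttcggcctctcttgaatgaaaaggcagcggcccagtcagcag
DDX41: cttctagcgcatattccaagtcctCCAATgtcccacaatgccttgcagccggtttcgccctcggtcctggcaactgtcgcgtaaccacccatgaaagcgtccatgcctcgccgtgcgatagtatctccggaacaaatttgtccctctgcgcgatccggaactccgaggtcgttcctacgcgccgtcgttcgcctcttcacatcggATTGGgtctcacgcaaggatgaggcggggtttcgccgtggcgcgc
DDX39B: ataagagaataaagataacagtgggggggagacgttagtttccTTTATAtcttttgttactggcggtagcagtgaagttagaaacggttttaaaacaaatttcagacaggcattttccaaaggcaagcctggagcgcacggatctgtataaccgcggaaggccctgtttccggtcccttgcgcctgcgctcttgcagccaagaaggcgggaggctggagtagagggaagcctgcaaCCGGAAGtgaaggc
DDX59 has 4 GC boxes, DDX20 1 CCAAT box, DDX39A 3 and DDX41 2. DDX39B has 1 TATA box on the reverse strand, far from the start, and 1 ETS motif close to it. Windows were found for 48 of the 53 genes, 43 of them tested. In 37 of the 48 the 20 bases after the RefSeq start lie within a GENCODE transcript of the gene, and among the shown windows those of DDX20 do not. The background was 15843 windows of protein-coding genes, taken whatever their level, whereas the 43 are of genes that passed the TPM minimum. The sets are thus unlike, and their differences were not tested. The ETS factor motif, searched as CCGGAAG, was in 34.9% of those 43 windows and in 11.8% of the 15843. The E-box, searched as CACGTG, was in 16.3% and 7.84%. The GC box, searched as GGGCGG, was in 58.1% and 56.0%, and the CCAAT box, searched by the letters of its name, in 44.2% and 34.5%. The last motif, TATAAA, was in 4.65% and 9.23%. No matches of different motifs overlapped in the 43 windows. The 15 helicases with an ETS motif included DHX57 (log2 change -2.69) and DHX8 (-2.04) as well as DDX5 (-1.01) and DDX39B (0.33). The matched helicases with the largest decreases, DDX59, DDX20, DDX3X, DDX28, DHX36 and DDX55 (-3.24 to -2.76), did not have this motif. Whether the motif goes with the change was not tested. A match is a string of letters, not evidence of binding. DDX18, DDX49, DDX52, DHX33 and DHX58 were not matched.

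The transcripts of the 9 helicases listed here as spliceosomal changed unequally. Of the 9, 8 fell and DDX41 did not pass, with a median of -1.77 (5 lower and 2 higher after median-of-ratios scaling). Among all tested genes 80.7% fell (35.3% lower and 35.5% higher after that scaling). DDX23, which hands the 5′ splice site from U1 to U6 RNA, was at 54.9 and 57.3 TPM in vehicle and at 10.7 and 11.1 TPM in JMC45. It fell by 2.26 (SE 0.08, limma adjusted p = 1e-05), the largest change of this group. DHX16, which drives activation before the first chemical step, went from 29.4 and 32.0 TPM to 6.14 and 7.44 TPM. DHX8, which releases the finished mRNA, went from 26.9 and 24.8 TPM to 6.07 and 5.01 TPM. DHX15, which takes the spent complex apart, went from 166 and 141 TPM to 36.4 and 38.3 TPM. For each of these genes both JMC45 libraries lay below both vehicle libraries, and each remained lower after median-of-ratios scaling (-0.96, -0.76, -0.79 and -0.67).

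Smaller decreases were measured for the helicases of other splicing steps. DHX38, needed for the second chemical step, was at 23.5 and 24.7 TPM in vehicle and at 12.4 and 13.2 TPM in JMC45, a log2 change of -0.86 that became 0.43 after median-of-ratios scaling. DDX46, which helps U2 to bind the branch site, changed by -1.10, near the median tested gene, and DHX35 by -1.13, and under median-of-ratios scaling they were at 0.22 and 0.024. DDX42, associated with the U2 particle, fell by 1.77. DDX41, a component of late spliceosomes that is mutated in inherited forms of myeloid leukaemia, was at 57.0 and 51.9 TPM in vehicle and at 52.5 and 54.5 TPM in JMC45. The groups overlapped, and the change was -0.02 (SE 0.08, limma adjusted p = 0.786). Since most other transcripts were lower, DDX41 was higher after median-of-ratios scaling (1.31) and quantile normalization (0.85), and it was lower with the mitochondrially encoded total held equal (-0.48).

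All 16 ribosome assembly helicases were tested, the largest group, and 15 fell, with a median of -1.72 (11 lower and 2 higher after median-of-ratios scaling). The background was again 80.7% of all tested genes (35.3% lower and 35.5% higher after that scaling). DDX52, a factor of the small subunit, was at 15.6 and 13.7 TPM in vehicle and at 1.07 and 1.05 TPM in JMC45. Its JMC45 mean was 7.24% of the vehicle mean, and it fell by 2.92 (SE 0.13, limma adjusted p = 1.29e-05). DDX55, a factor of the large subunit, went from 26.04 and 22.98 TPM to 3.12 and 2.44 TPM. DDX24 was among the most abundant of the group, at 124 and 121.9 TPM in vehicle and 29.9 and 30.1 TPM in JMC45, and fell by 2.00. Between them, the 10 genes DDX10, DDX31, DDX47, DDX56, DHX33, DDX18, DDX27, DHX37, DDX54 and DDX50 changed by -1.91 to -1.37, though DDX54 (-0.13) and DDX50 (-0.060) did not pass under median-of-ratios scaling, nor DHX37 (-0.17) under quantile normalization. In all of them the JMC45 libraries lay below the vehicle libraries.

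At the other end of this group stood DDX51, DDX21 and DDX49. DDX49, a small-subunit factor, was at 39.8 and 43.9 TPM in vehicle and at 37.0 and 35.0 TPM in JMC45. The groups did not overlap, but the change of -0.21 (SE 0.08) did not pass (limma adjusted p = 0.0536), and it was 1.12 after median-of-ratios scaling. Without vehicle replicate 1 it was called lower (-0.28). DDX21, a nucleolar helicase also known to act on transcription by RNA polymerases I and II, went from 109.9 and 93.0 TPM to 50.7 and 54.7 TPM. Its change of -0.93 is set beside -1.37 for its paralogue DDX50, which went from 45.2 and 42.1 TPM to 16.2 and 16.3 TPM, and it became 0.42 after median-of-ratios scaling. DDX51 fell by 1.19, with a value of 0.054 after that scaling.

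**Figure D4:**
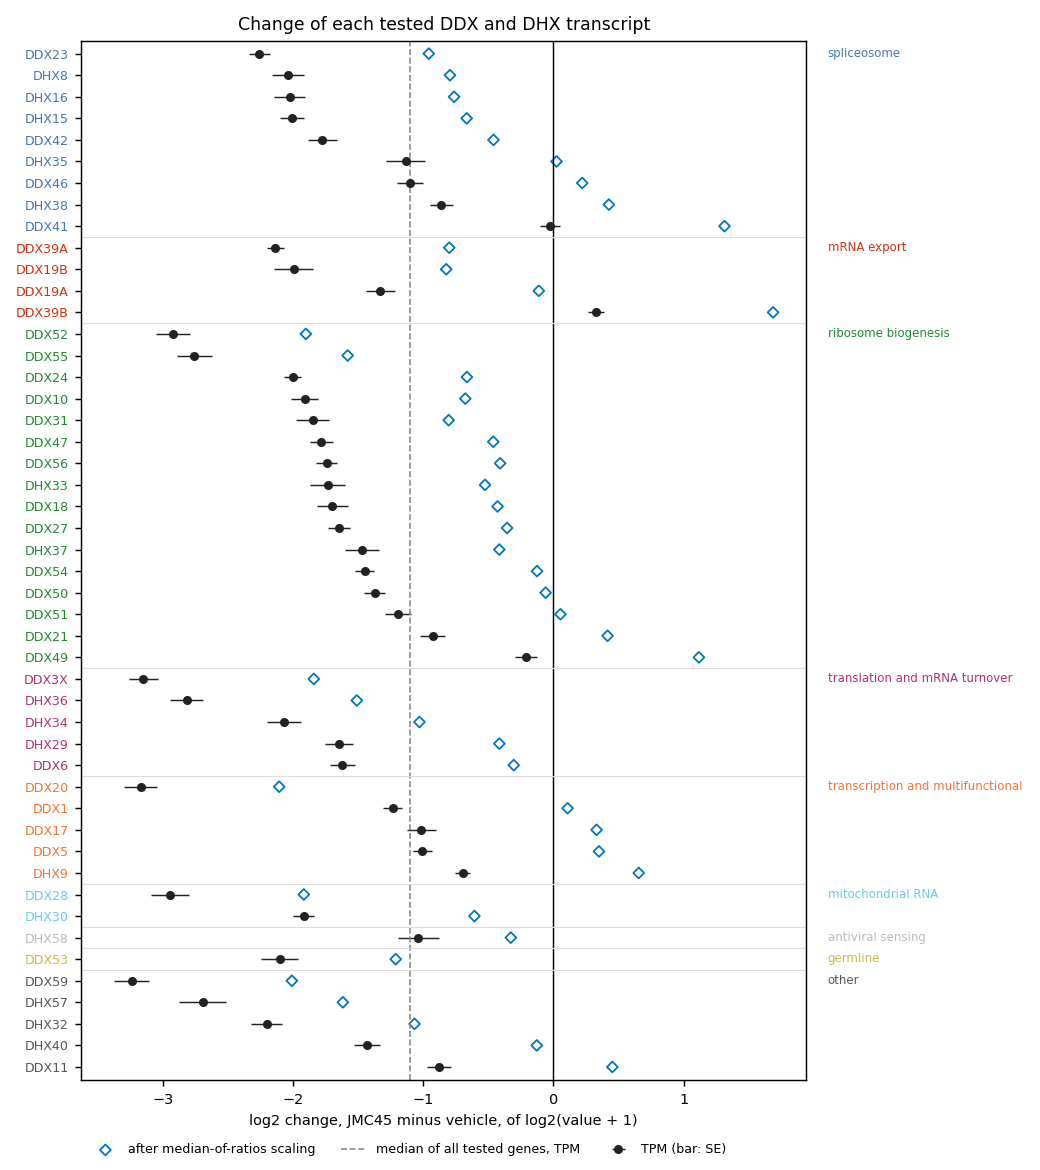
Log2 change of each tested helicase on TPM (black, with SE) and after median-of-ratios scaling (open blue diamonds), by role. The dashed line is the median of all tested genes on TPM, -1.10, and 37 of the 48 black points lie to its left.

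The 5 helicases of translation and mRNA turnover all fell, on TPM and after both scalings, with a median of -2.07. Of all tested genes 80.7% fell on TPM. After median-of-ratios scaling 35.3% were lower, and after quantile normalization 32.8%. DDX3X, which helps ribosomes start on structured 5′ leaders, was at 119.6 and 98.2 TPM in vehicle and at 10.9 and 11.7 TPM in JMC45. It fell by 3.15 (SE 0.11, limma adjusted p = 1e-05), or by 1.84 after median-of-ratios scaling, and went from the ninth to the 23rd most abundant helicase. DHX36, which unwinds G-quadruplexes, went from 85.1 and 82.9 TPM to 12.7 and 9.63 TPM, a change of -2.82. DHX34, a factor of nonsense-mediated decay, went from 9.13 and 9.48 TPM to 1.54 and 1.37 TPM. DDX6, which represses translation and activates decapping, went from 56.7 and 49.99 TPM to 17.4 and 15.9 TPM (-1.62). DHX29, which helps the small ribosomal subunit scan, went from 20.1 and 18.0 TPM to 5.31 and 5.46 TPM (-1.65).

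The group of transcriptional and multifunctional helicases held abundant genes with changes of -1.24 to -0.70 and 1 less abundant gene, DDX20, with a larger change. DDX5, at 481 and 429 TPM in vehicle and at 222 and 229 TPM in JMC45, fell by 1.01 (SE 0.07, limma adjusted p = 4.58e-05). It is a coactivator of several transcription factors, the androgen receptor among them. DDX17 was at 137 and 110.1 TPM and at 61.3 and 59.2 TPM and fell by 1.02. DHX9, which resolves RNA and RNA-DNA structures, was at 165 and 161 TPM in vehicle and at 100.4 and 100.2 TPM in JMC45 and fell by 0.70, the smallest decrease that passed. DDX1, a subunit of the tRNA ligase complex, went from 116 and 114 TPM to 46.4 and 50.4 TPM and fell by 1.24. After median-of-ratios scaling DDX5 (0.35), DDX17 (0.33) and DHX9 (0.66) were higher and DDX1 (0.11) did not pass. After quantile normalization DDX5 (-0.66), DDX17 (-0.35), DHX9 (-0.17) and DDX1 (-0.52) were all lower. DDX20, which works in the SMN complex that assembles spliceosomal RNPs, was at 20.9 and 18.3 TPM in vehicle and at 1.25 and 1.31 TPM in JMC45. Its JMC45 mean was 6.54% of the vehicle mean, the lowest share of the 48, and its change was -3.17 (SE 0.13, limma adjusted p = 1.09e-05). Median-of-ratios scaling gave -2.11.

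Both helicases of mitochondrial RNA fell, as did 80.7% of all tested genes. DDX28, which takes part in building the mitochondrial ribosome, went from 15.7 and 15.0 TPM to 1.32 and 0.93 TPM (-2.95). DHX30, which also acts there, went from 56.6 and 57.1 TPM to 14.9 and 13.7 TPM (-1.92). Among members outside these roles, DDX59 had the largest change of the 48 in log2(TPM + 1), but DDX20 exceeded it with a pseudocount of 0.1, under median-of-ratios scaling, and without the mitochondrially encoded genes or JMC45 replicate 2. DDX3X exceeded it under quantile normalization and without JMC45 replicate 2. With a pseudocount of 0.1, DDX28 (-3.67) and DDX52 (-3.66) also exceeded DDX59 (-3.50). DDX59 was at 49.1 and 42.0 TPM in vehicle and at 4.39 and 3.48 TPM in JMC45, and fell by 3.24 (SE 0.13, limma adjusted p = 1.14e-05). DHX57 went from 15.5 and 15.6 TPM to 2.00 and 1.17 TPM (-2.69), and DHX32 from 14.8 and 14.1 TPM to 2.25 and 2.46 TPM (-2.20). DHX40 fell by 1.43, but did not pass under median-of-ratios scaling (-0.13). DDX11, a DNA helicase of sister chromatid cohesion with a DEAH motif, went from 65.8 and 56.7 TPM to 32.5 and 32.9 TPM. Its change of -0.88 became 0.45 after median-of-ratios scaling, with 0.038 under quantile normalization.

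Antiviral and germline helicases were scarce. DHX58, a regulator of RNA sensing, was at 2.16 and 2.21 TPM in vehicle and 0.44 and 0.67 TPM in JMC45. It fell by 1.04, but did not pass after median-of-ratios scaling (-0.33) or quantile normalization (-0.01). DDX53, a cancer/testis antigen, was at 6.76 and 5.91 TPM and at 0.69 and 0.72 TPM and fell by 2.10. The other 5, not tested because of their low level, were DDX60, DDX60L, DDX25, DDX4 and DDX43. DDX60 was at 0.54 TPM at most, DDX60L at 0.40, DDX25 at 0.43 and DDX4 at 0.04, and DDX43 was listed at 0 in all 4 libraries.

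Across roles, 9 of the 48 helicases kept under 15% of their vehicle mean, against 14.6% of all tested genes: DDX20, DDX52, DDX28, DDX59, DHX57, DDX3X, DDX53, DDX55 and DHX36. They come from 6 of the 9 role groups. Over 50% was kept by 7 helicases, against 37.6% of all tested genes: DDX39B, DDX41, DDX49, DHX9, DDX11, DHX38 and DDX21. The former had vehicle means from 6.34 to 109 TPM and the latter from 24.1 to 296 TPM, so the ranges overlap. The medians of the 32 tested DDX genes and the 16 DHX genes were -1.72 and -1.83.

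**Figure D5:**
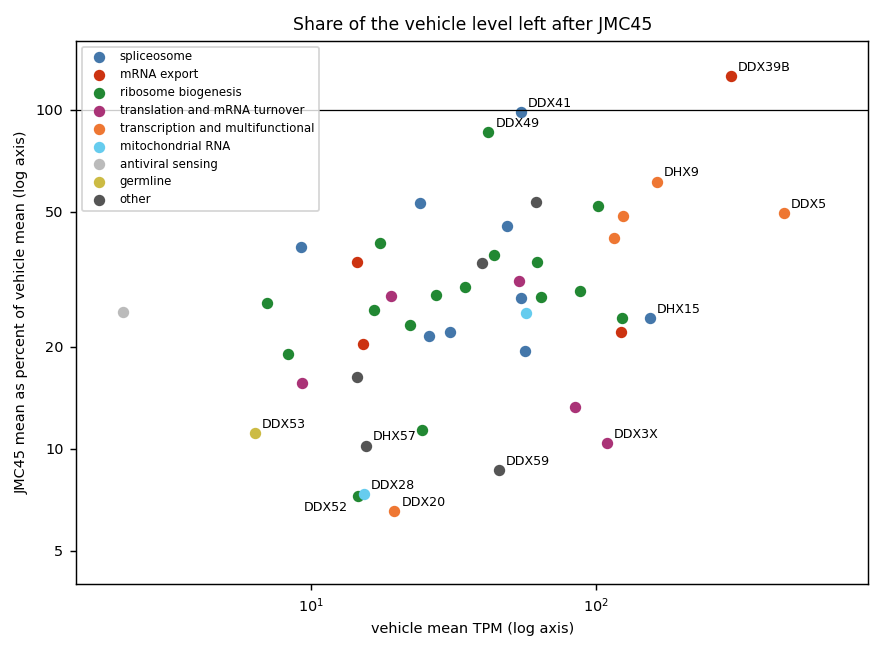
JMC45 mean TPM as a percent of the vehicle mean against the vehicle mean (both axes log), 1 point per tested helicase, coloured by role. DDX39B is the only point above the line at 100%, and DDX20, DDX52, DDX28 and DDX59 are below 10%.

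The median change was nearer to that of all genes for a mixed list of related helicases that carry other names. Of 15 such genes chosen as a list 13 were tested, 12 fell and none rose, with a median of -1.17. After median-of-ratios scaling 3 were lower and 4 higher. The shares of all tested genes were 80.7% lower and 4.25% higher on TPM, and 35.3% and 35.5% after that scaling. EIF4A3, the helicase of the exon junction complex, fell by 2.35. EIF4A1, the translation initiation helicase, was the most abundant of them at 1082 and 1105 TPM in vehicle and 435 and 452 TPM in JMC45 (-1.30). It did not pass under median-of-ratios scaling (0.062). SNRNP200, which unwinds U4 from U6 RNA in the spliceosome, fell by 0.31, and TDRD9 did not pass (-0.25). RIGI, the RNA sensor formerly called DDX58, was too low to test. The difference between the lists was not tested.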

How the data were processed

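Messenger RNA of 4 libraries was read from the authors' deposited table of TPM, with 1 value per Ensembl gene and library. Tools listed in the submitters' processing notes are HISAT2, StringTie and fastp, with genome build and annotation not given in the sources used here. Libraries were stranded and oligo(dT)-selected, per the labels' protocols. TPM keeps no depth, so counting error cannot be given. The 50 lines without values were left out, and the columns named CTL were read as vehicle by name and number.

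Symbols came from a table of gene identifiers (62666 of 63241 matched), gene types and exons from GENCODE release 29, and promoter windows from RefSeq on GRCh38.p14. The test was limma 3.58.1 (R 4.3.3) on log2(TPM + 1), two-sided, fitted with an intensity trend and without a replicate block to 14018 genes whose TPM averaged 1 or more. P-values were adjusted by Benjamini-Hochberg over this whole set. Pairs were compared by exact permutation of the differences in log2(TPM + 1). Median-of-ratios factors came from tested genes above 0 in every library. The fit was tested on simulated data. Summaries used Python 3.11.15, pandas 2.3.3, numpy 2.4.6, scipy 1.17.1 and matplotlib 3.10.9.

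The members, role lists and pairs were chosen with earlier results of these data known, and the motifs and shown promoters after the changes were seen. Full values are given, per role, for up to 3 members with the largest change and the 1 with the smallest, for the member that rose and for both genes of each pair, while a few others were picked from their values. Alternatives were quantile normalization, median-of-ratios scaling, a pseudocount of 0.1, no filter, a minimum mean TPM of 5, removal of mitochondrially encoded genes, scaling to their total, no intensity trend, a replicate block, and omission of each library.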

Additional observations from a re-analysis of the deposited data

How the results depend on the processing

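The count of helicases called lower was 30 to 47 under the alternatives that kept all 4 libraries, within 1.5 times of 45. The share of all tested genes called lower moved as well. It was 35.3% under median-of-ratios scaling (30 helicases), 32.8% under quantile normalization (36) and 90.5% on equal mitochondrially encoded totals (47). The count called higher was 1, except for 9 under median-of-ratios scaling, 4 under quantile normalization and 0 on equal mitochondrially encoded totals. The median change of the helicases was -1.83 with a pseudocount of 0.1, -1.67 with no filter on low values, -0.57 under quantile normalization, -0.44 under median-of-ratios scaling, -1.63 without the mitochondrially encoded genes, -2.16 with their total made equal, and -1.77 to -1.65 with 1 library left out. It lay below the median of all genes on TPM (-1.10), under median-of-ratios scaling (-0.0070) and under quantile normalization (0.018). After median-of-ratios scaling the sign turned for DDX1 (0.11), DDX5 (0.35), DDX11 (0.45), DDX17 (0.33), DDX21 (0.42), DDX41 (1.31), DDX46 (0.22), DDX49 (1.12), DDX51 (0.054), DHX9 (0.66), DHX35 (0.024) and DHX38 (0.43), and the calls of DDX19A, DDX50, DDX54, DHX40 and DHX58 were lost. After quantile normalization it turned for DDX11 (0.038), DDX19A (0.043), DDX41 (0.85), DDX49 (0.78), DDX51 (0.15), DHX35 (0.23) and DHX38 (0.39), and the calls of DDX21, DDX46, DHX37 and DHX58 were lost. These scalings by construction set the typical gene near 0. On equal mitochondrially encoded totals DDX39B was at -0.13. DDX41 was at 0.12 without the mitochondrially encoded genes, and at -0.089 to 0.042 with 1 library left out (above 0 without vehicle replicate 1, and 0.0037 without JMC45 replicate 1). DDX49 was called lower at a mean TPM of at least 5 (-0.21), on equal mitochondrially encoded totals (-0.66) and without vehicle replicate 1 (-0.28).

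For the pairs, quantile normalization gave -2.03 for DDX39A minus DDX39B, 0.090 for DDX21 minus DDX50, -0.31 for DDX5 minus DDX17 and 0.029 for DHX8 minus DHX16, and a pseudocount of 0.1 gave 1.46 for DHX29 minus DHX57. The causes were not tested. With 1 library left out, DDX5 minus DDX17 was -0.068 to 0.081 and DHX8 minus DHX16 was -0.25 to 0.23. With the replicate number as a block 45 helicases were lower and 1 higher, as without it, and no helicase's call changed. Of all tested genes 81.2% were lower and 4.37% higher with the block. Same-numbered libraries did not deviate together (r = -0.05 across 14018 genes), so the numbers were not taken to pair them. Depth limits are unknown for TPM.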

Other observations

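Gene structure separated the helicases little. Among the 48 tested helicases, the rank correlation of the change with genomic span was -0.17, with exonic length -0.05, with the number of exon blocks 0.17 and with the vehicle level 0.23. Over 11570 tested protein-coding genes the same values were 0.06, -0.03, 0.09 and 0.02. They are descriptions across genes measured in the same 4 libraries. The helicases with a single exon block, DDX28 and DDX53, kept 7.35% and 11.1% of their vehicle mean, but DHX57 and DHX36, with 26 blocks each, also kept little (10.2% and 13.3%), and DHX9, with 31, kept 61.4%. The median helicase had a span of 31.1 kb and 15.5 exon blocks, and the median protein-coding gene 32.8 kb and 11 blocks.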
